A study of Homo sapiens with 6 samples.

Results

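The genes described here are 39 interferon-stimulated genes, most of them antiviral effectors, with the nucleic acid sensors IFIH1, DDX60 and IFI16, the signal transducer STAT2 and the interferon receptor chains IFNAR1 and IFNGR1. They were taken as a list of gene symbols. A gene counted as measured where the platform annotation pairs a probe set with its symbol alone, and its brightest probe set, by the mean of the 6 arrays, stood for it. This gave 37 measured genes of 18132 in all. STAT2 and USP18, the ISG15-removing protease, had no probe set of this kind, and their levels are not analysed here.

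The cells were BCPAP, an established line from a human papillary thyroid carcinoma. In the shCSF2 group (n = 3 arrays) lentivirus delivered a short hairpin RNA that targets CSF2, which encodes the cytokine GM-CSF. In the shCtrl group (n = 3 arrays) it delivered a non-targeting hairpin, and both groups went through puromycin selection for 7 days. The labels call the 3 arrays of a group independent biological replicates and do not say whether they are separate transductions, so p-values measure the spread between these samples. The sources used here do not say how many hairpins were used, and no probe set was paired with CSF2, so the knockdown itself was not checked. No group without lentivirus or hairpin was measured, so effects that both groups share are not visible here.

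Interferons are secreted proteins that infected or damaged cells release. Type I interferon binds a receptor of the IFNAR1 and IFNAR2 chains and, through the kinases JAK1 and TYK2, activates a transcription factor complex that contains STAT2 and IRF9. This complex binds the interferon-stimulated response element, a repeat of GAAA, whereas interferon gamma acts through a receptor of the IFNGR1 and IFNGR2 chains on the gamma-activated site. The genes switched on in this way degrade or sequester viral RNA, block viral entry and release, and sense foreign nucleic acid. Many of these genes are also expressed at a low constant level in uninfected cells.

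The first of these elements can be read in the promoters of many of the genes. The RefSeq table of promoters (GRCh38.p14, 250 bases before to 50 after each annotated start) held 33 of the 39 genes. The core, GAAA followed by any 2 bases and GAAA, was searched on both strands and lay in 23 of these 33 (69.7%), against 4.15% of the 14425 measured genes that the table holds. The gamma-activated site TTCNNNGAA, which matches itself on the other strand, lay in 9 of the 33 (27.3%), against 9.23%. The 2 motifs overlapped in BST2, EPSTI1, IFI27, IFITM1 and MX1. A match is a stretch of letters and not a measured binding site.

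Windows of up to 50 bases around the core are shown to compare promoters of genes that were higher, lower or not called in shCSF2 cells. Each is written in the direction of its gene, and capitals mark the 10 bases of 1 match to the core. The windows of BST2, IFIT1 and ISG15 hold a further match that is not marked. The first are genes that were higher in shCSF2 cells (PARP9 by the probe set used):
IFIT5, chr10:89414503-89414552, plus strand: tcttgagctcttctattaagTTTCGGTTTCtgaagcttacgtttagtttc
ISG20, chr15:88638927-88638976, plus strand: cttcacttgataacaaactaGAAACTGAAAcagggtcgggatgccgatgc
EPSTI1, chr13:42992262-42992311, minus strand: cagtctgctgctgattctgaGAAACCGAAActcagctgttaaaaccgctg
SAMD9, chr7:93118086-93118135, minus strand: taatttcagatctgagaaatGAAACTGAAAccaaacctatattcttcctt
RSAD2, chr2:6877612-6877661, plus strand: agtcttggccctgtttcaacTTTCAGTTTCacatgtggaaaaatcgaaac
PARP9, chr3:122564312-122564361, minus strand: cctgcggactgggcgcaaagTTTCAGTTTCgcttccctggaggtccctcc
Genes that were lower in shCSF2 cells held the core too:
BST2, chr19:17405731-17405780, minus strand: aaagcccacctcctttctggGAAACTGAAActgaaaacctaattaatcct
GBP1, chr1:89065306-89065355, minus strand: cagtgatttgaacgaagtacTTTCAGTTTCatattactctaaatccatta
IFITM1, chr11:313980-314029, plus strand: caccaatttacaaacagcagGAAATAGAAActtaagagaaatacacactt
Genes that did not pass the test held it as well:
IFIT1, chr10:89392487-89392536, plus strand: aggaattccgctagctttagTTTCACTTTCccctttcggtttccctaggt
ISG15, chr1:1013370-1013419, plus strand: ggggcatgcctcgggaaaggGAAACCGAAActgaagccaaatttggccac

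Among the marked cores of the windows shown, ISG20, SAMD9 and BST2 shared 1 core letter for letter, and RSAD2, PARP9 and GBP1 held the same core on the other strand. Of these 6 genes, BST2 and GBP1 were lower in shCSF2 cells, ISG20, SAMD9 and RSAD2 were higher, and PARP9 had probe sets called in both directions. The core of EPSTI1, which was higher, and that of ISG15, which did not pass, were also identical. IFIT5, which was higher, held this core on the other strand, as did the unmarked match of IFIT1, which did not pass. Genes whose windows are not shown held the shared cores too, such as DDX60, which did not pass, and IFIT3, which was higher. PARP9 and DTX3L are divergent neighbours, and the core in the PARP9 window is the same stretch of DNA that lies across the start of DTX3L. By direction of change, the core was present in 12 of the 15 higher genes with a promoter in the table, in 5 of the 5 lower genes and in 6 of the 12 that did not pass. The 250 bases before the start of BST2, the gene with the largest fall among those in the table, are shown for the run of overlapping cores, in capitals (chr19:17405631-17405880, minus strand):
BST2: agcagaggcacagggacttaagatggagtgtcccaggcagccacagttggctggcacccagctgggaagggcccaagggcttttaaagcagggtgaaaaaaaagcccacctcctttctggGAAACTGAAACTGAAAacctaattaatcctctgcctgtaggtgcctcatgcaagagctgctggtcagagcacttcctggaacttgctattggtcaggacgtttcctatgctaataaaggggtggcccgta

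**Figure D1:**
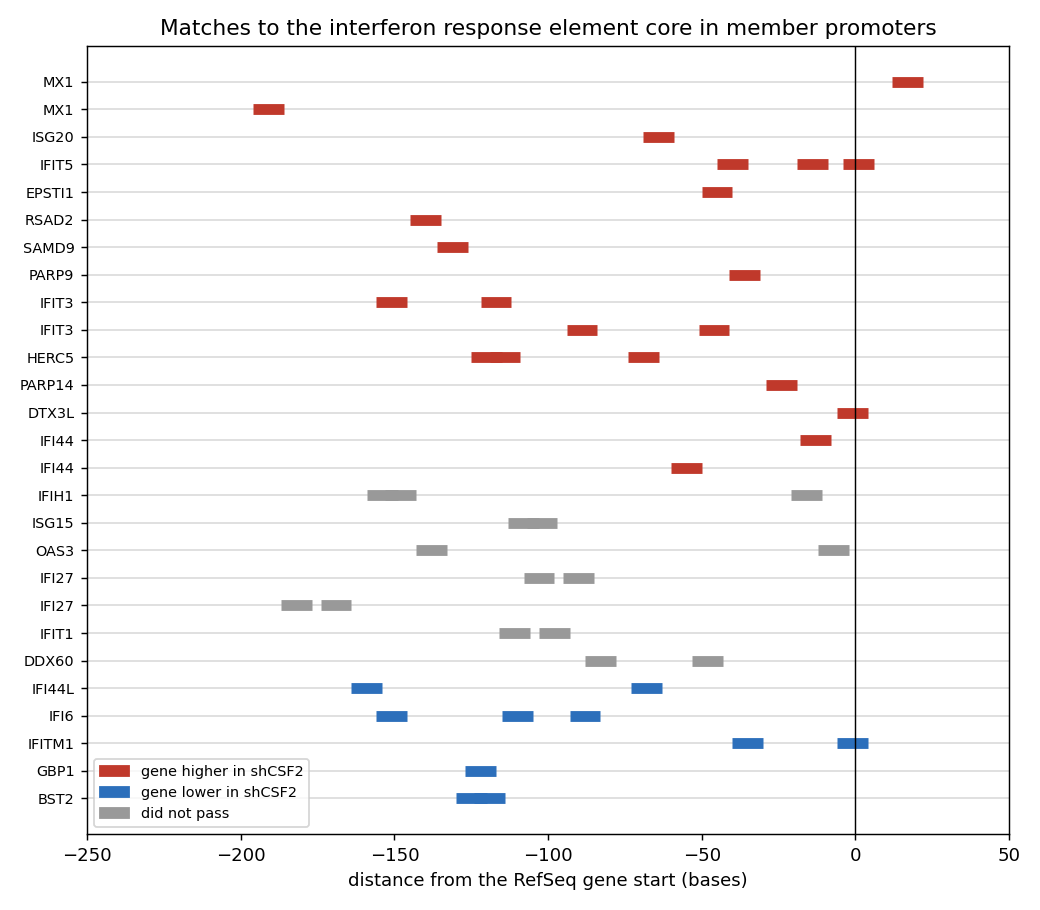
Position of each match to the core of the interferon-stimulated response element, in bases from the RefSeq gene start, for the 23 genes that hold one, ordered by fold change, with 1 line for each annotated start that holds a match. Red, blue and grey mark genes that were higher, lower or not called in shCSF2 cells, and matches lie before the start in all 3 classes.

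The values are log2 expression summaries, on which a difference of 1 is 2-fold, and the comparison asked which of these transcripts differ when CSF2 is targeted. Differences were tested with limma over all 18132 genes, and a gene passed at a Benjamini-Hochberg adjusted p under 0.05. Of the 37 measured genes, 18 were higher and 6 lower in shCSF2 cells and 13 did not pass. Together 64.9% passed, against a background of 32.7% of all genes. In the higher direction 48.6% passed, against 16.7% of all genes, and the 6 lower genes compare with a background of 16.0%. The genes were brighter than most, and among genes with a mean log2 value of at least 5 the shares were 23 of 35 (65.7%) and 43.4%. The background depended on the genes fitted: refitted on those genes alone it was 51.4%, against 65.7% of the 35. Refitted on genes at or above the median level, it was 64.0%, against 71.9% of the 32 that remained, so the gap in called shares was narrower among brighter genes. The median log2 fold change was 0.11 for the 37 genes, against -0.03 for all genes. In 28 of the 37 genes the groups did not overlap, 19 with shCSF2 above and 9 with shCSF2 below, against 46.7% of all genes (22.1% above and 24.6% below).

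All the changes were under 2-fold. The largest rise was 1.82-fold, in IFIT2, and the largest fall was 1.74-fold, in GBP2. Both directions occurred among genes with the core and among genes of 1 role, so the genes are described role by role.

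**Figure D2:**
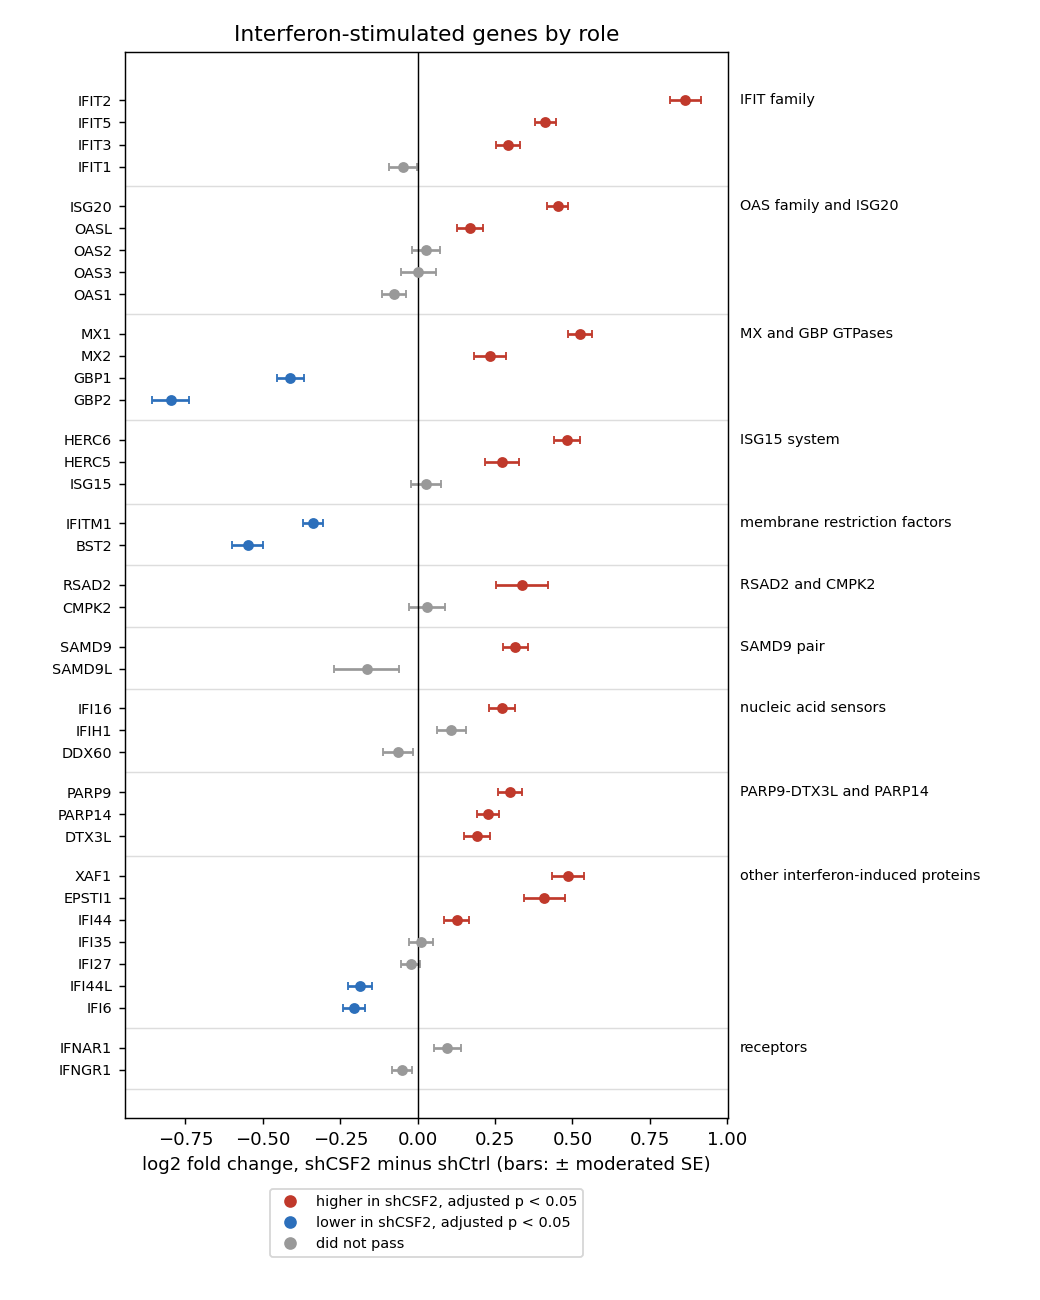
Log2 fold change (shCSF2 minus shCtrl) of the 37 measured genes with its moderated SE (n = 3 arrays per group), grouped by role. Red genes were higher, blue lower and grey did not pass; the values run from -0.80 for GBP2 to 0.86 for IFIT2.

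The IFIT proteins bind foreign RNA and the translation machinery and hold back viral protein synthesis, and 3 of the 4 genes rose. IFIT2, which pairs with IFIT3 in this complex and also promotes apoptosis, read 8.21, 8.36 and 8.24 on the shCSF2 arrays, against 7.40, 7.44 and 7.37 on the shCtrl arrays. The lowest shCSF2 array lay far above the highest shCtrl array, and the log2 fold change was 0.86 ± 0.05 (SE, adjusted p = 6.33e-05). Both of its probe sets passed, with 0.86 and 0.59. IFIT5, which binds the phosphate ends of RNA, read 7.87, 7.83 and 7.80 in shCSF2 cells, against 7.43, 7.43 and 7.41 in shCtrl cells. Its groups did not overlap (0.41 ± 0.03, adjusted p = 0.000221), and its other probe set gave 0.44. IFIT3 rose less (0.29 ± 0.04, adjusted p = 0.00144). IFIT1, which recognises caps without the host methyl mark, averaged 8.20 ± 0.05 in shCSF2 and 8.25 ± 0.06 in shCtrl cells (SD, n = 3 each). Its groups overlapped, and it did not pass (-0.05 ± 0.05, adjusted p = 0.478). IFIT1 and IFIT3 were each read by 1 probe set, that of IFIT3 of the x_at type, whose probes can match other transcripts.

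The oligoadenylate synthetases OAS1, OAS2 and OAS3 sense double-stranded RNA and make the messenger that switches on RNase L. None of the 3 passed, with log2 fold changes of -0.08, 0.03 and 0.00. For OAS1, 1 of 4 probe sets passed as lower (-0.17), and for OAS2, 1 of 5 passed as higher (0.21). OASL, which lacks this enzyme activity and binds the RNA sensor RIG-I, rose slightly on 1 probe set, of the x_at type (0.17 ± 0.04, adjusted p = 0.0181). That call did not hold without shCSF2 replicate 2 (0.15), shCSF2 replicate 3 (0.16) or shCtrl replicate 1 (0.16), with adjusted p between 0.0560 and 0.0626. ISG20, an RNA exonuclease, read 8.67, 8.71 and 8.70 on the shCSF2 arrays, against 8.23, 8.21 and 8.27 on the shCtrl arrays. The groups stood clearly apart (0.45 ± 0.03, adjusted p = 0.000151).

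Large antiviral GTPases moved in opposite directions by subfamily. MX1, a dynamin-like protein that traps viral nucleocapsids, read 7.90, 7.86 and 7.93 in shCSF2 cells, against 7.34, 7.35 and 7.42 in shCtrl cells. Every shCSF2 array was above every shCtrl array (0.53 ± 0.04, adjusted p = 0.000142). Its relative MX2, which acts at the nuclear pore, rose by 0.23 ± 0.05 (adjusted p = 0.0136), with 1 of 2 probe sets past the threshold in the fit over probe sets. The guanylate-binding proteins coat and break open vacuoles that hold pathogens and are classic targets of interferon gamma. GBP2 read 6.19, 6.21 and 6.12 in shCSF2 cells, against 6.91, 7.10 and 6.91 in shCtrl cells. It had the largest fall of the 37 genes (-0.80 ± 0.06, adjusted p = 0.000146), but its second probe set gave -0.19 and did not pass, and the mean of both gave -0.49. GBP1 read 8.68, 8.81 and 8.73 in shCSF2 cells, against 9.14, 9.16 and 9.15 in shCtrl cells. The fall (-0.41 ± 0.04, adjusted p = 0.000535) was seen in 5 of 5 probe sets, between -0.43 and -0.38. Of the other guanylate-binding genes, named after their values were seen, GBP3 (-0.31) and GBP4 (-0.57) also fell, whereas GBP5 did not pass (-0.08). Transcripts of this family are alike, and 4 of the 5 GBP1 probe sets were of the x_at type, so how far each gene contributed to a neighbour's signal was not tested.

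ISG15 is a ubiquitin-like protein that is attached to other proteins during infection. It averaged 9.30 ± 0.03 in shCSF2 and 9.27 ± 0.08 in shCtrl cells (SD, n = 3 each). The arrays of the 2 groups overlapped, and it did not pass (0.03 ± 0.05, adjusted p = 0.710). Both HERC genes, HERC5 and HERC6, rose. HERC6, which attaches ISG15 in mouse, read 6.64, 6.64 and 6.57 in shCSF2 cells, against 6.18, 6.08 and 6.14 in shCtrl cells. No values were shared (0.48 ± 0.04, adjusted p = 0.000269). HERC5, the main human ligase for ISG15, rose by 0.27 ± 0.05 (adjusted p = 0.00870). Each of the 3 genes was read by 1 probe set.

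Both membrane restriction factors fell. BST2, or tetherin, holds budding virions at the cell surface. It read 6.71, 6.79 and 6.84 in shCSF2 cells, against 7.36, 7.26 and 7.36 in shCtrl cells. The groups did not overlap (-0.55 ± 0.05, adjusted p = 0.000299). Of its 4 probe sets, 3 fell by 0.54 to 0.66 and the last, at a mean log2 value of 2.28, did not pass. IFITM1, which stiffens membranes against viral fusion, was among the brightest of the 37 genes. It read 11.06, 11.09 and 11.07 in shCSF2 cells, against 11.39, 11.40 and 11.43 in shCtrl cells. The groups did not overlap (-0.34 ± 0.03, adjusted p = 0.000373), and both of its probe sets passed, at -0.34 and -0.33. Its close relatives IFITM2 (-0.25) and IFITM3 (-0.21), named after their values were seen, fell as well. Their probe sets were of the x_at type, and how far the 3 genes share signal was not tested.

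RSAD2, or viperin, makes a nucleotide that stops viral RNA synthesis. It was dim, with 4.80, 4.75 and 4.57 in shCSF2 cells, against 4.43, 4.46 and 4.22 in shCtrl cells. The groups were close but did not overlap (0.34 ± 0.08, adjusted p = 0.0206), and its second probe set gave 0.66 at a mean of 3.52. This call did not hold without shCSF2 replicate 1 (0.29), shCSF2 replicate 2 (0.31) or shCtrl replicate 3 (0.26), with adjusted p between 0.0506 and 0.0651. CMPK2, the adjacent mitochondrial nucleotide kinase gene, did not pass (0.03 ± 0.06), and 1 of its 3 probe sets passed as lower (-0.19). SAMD9, which restricts poxviruses, read 6.93, 6.86 and 6.90 in shCSF2 cells, against 6.56, 6.55 and 6.64 in shCtrl cells. It rose by 0.32 ± 0.04 without overlap (adjusted p = 0.00127). Its paralogue SAMD9L, at a mean log2 value of 4.84, did not pass with any of 4 probe sets (-0.16 ± 0.11).

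Among the sensors, IFI16, which binds DNA, rose by 0.27 ± 0.04 (adjusted p = 0.00255), and 3 of its 3 probe sets passed between 0.27 and 0.29. IFIH1, or MDA5, senses long double-stranded RNA. It averaged 7.45 ± 0.06 in shCSF2 and 7.34 ± 0.06 in shCtrl cells (SD, n = 3 each) and did not pass (0.11 ± 0.05, adjusted p = 0.128). The helicase DDX60 did not pass either (-0.06 ± 0.05, adjusted p = 0.375).

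PARP9 and the ubiquitin ligase DTX3L form 1 complex that promotes interferon signalling, and PARP14 transfers ADP-ribose. All 3 passed as higher. PARP9 read 6.72, 6.67 and 6.72 in shCSF2 cells, against 6.35, 6.42 and 6.44 in shCtrl cells. The probe set used gave 0.30 ± 0.04 (adjusted p = 0.00138) without overlap. Of its 3 probe sets, however, 2 passed as higher (0.30 and 0.18) and 1 as lower (-0.20), so the direction of PARP9 is uncertain, and the mean of the 3 gave 0.10. DTX3L rose by 0.19 ± 0.04 (adjusted p = 0.0126) and PARP14 by 0.23 ± 0.04 (adjusted p = 0.00306). For DTX3L, the most variable and dimmest probe set (mean log2 value 5.10) gave 0.48 and also passed, whereas the remaining probe set (0.13) did not. For PARP14, 2 of 6 probe sets passed, and the other 4 lay between 0.04 and 0.17.

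Of the 7 remaining interferon-induced proteins, 3 were higher and 2 lower. XAF1, which opposes the caspase inhibitor XIAP, read 7.22, 7.27 and 7.33 in shCSF2 cells, against 6.76, 6.72 and 6.87 in shCtrl cells. Its groups did not overlap (0.49 ± 0.05, adjusted p = 0.000559), and 6 of 7 probe sets passed, between 0.25 and 0.52. EPSTI1, first described as a gene that stroma induces in breast epithelium, read 5.96, 5.88 and 6.01 in shCSF2 cells, against 5.54, 5.42 and 5.66 in shCtrl cells. It rose by 0.41 ± 0.07 without overlap (adjusted p = 0.00358), on 1 probe set. IFI44 passed narrowly (0.13 ± 0.04, adjusted p = 0.0480), a call that did not hold in any of the 6 fits without 1 array (0.10 to 0.15, adjusted p between 0.0505 and 0.119). IFI44 had 6 probe sets, and in the fit over probe sets 3 passed as higher (0.15 to 0.20), while the probe set used did not. Its neighbour and paralogue IFI44L passed in the other direction (-0.19 ± 0.04, adjusted p = 0.0104), with 1 of 3 probe sets past the threshold. IFI6, which protects membranes that flaviviruses reshape, fell by 0.21 (SE 0.04, adjusted p = 0.00456). IFI27, the brightest of the 37 genes, averaged 12.23 ± 0.01 in shCSF2 and 12.25 ± 0.02 in shCtrl cells (SD, n = 3 each) and did not pass (-0.02 ± 0.03). IFI35 did not pass (0.01 ± 0.04).

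**Figure D3:**
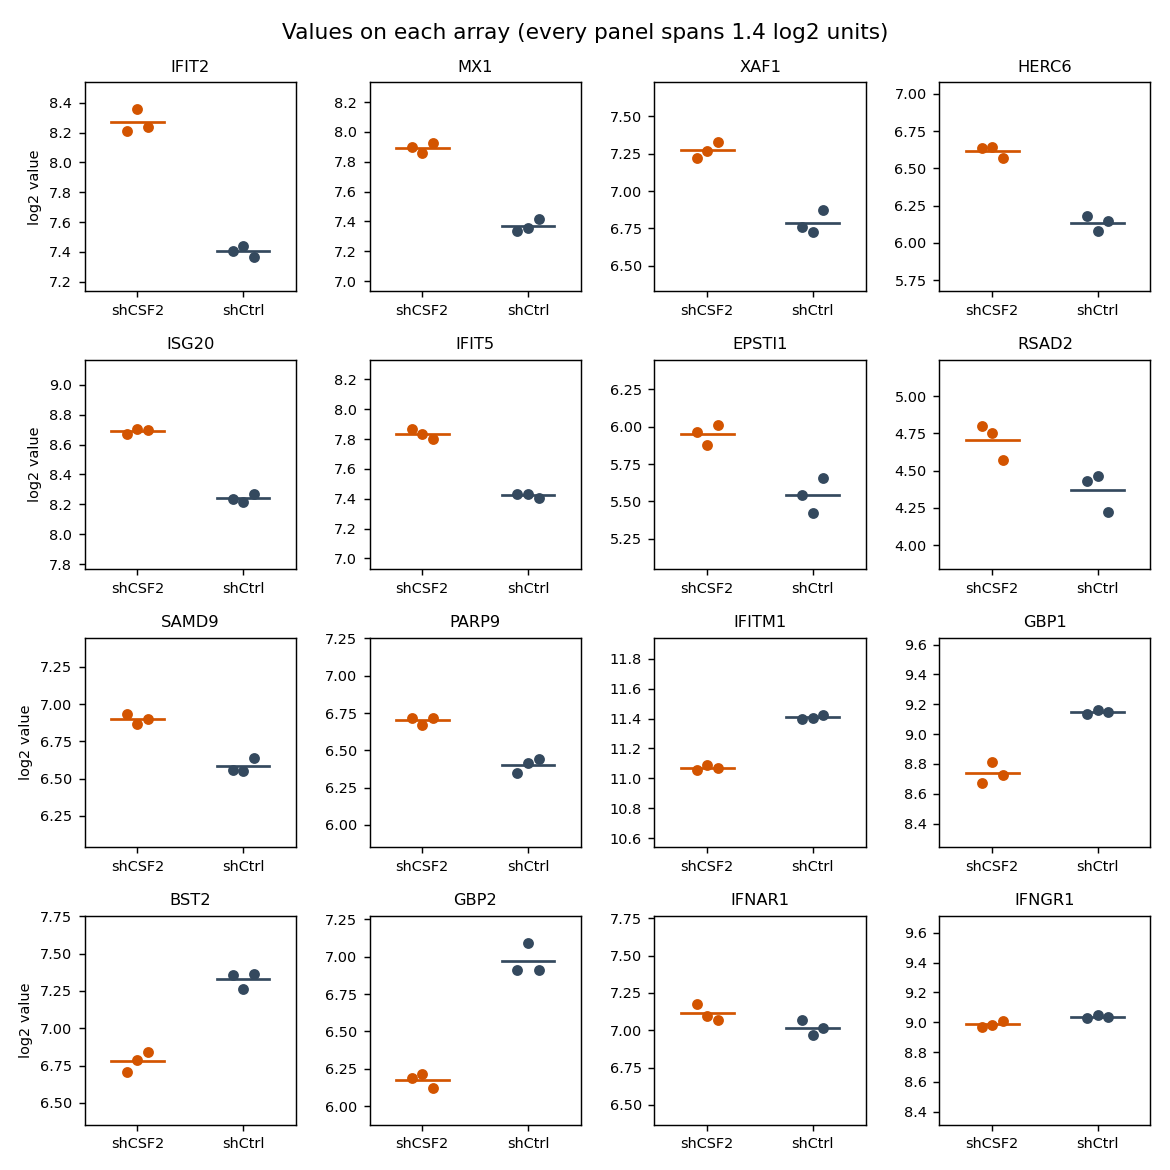
Log2 value on each array of the 14 genes with the largest absolute fold change among those that passed, ordered from the largest rise to the largest fall, and of the 2 receptor genes. Points are arrays (3 shCSF2 at the left, 3 shCtrl at the right), lines are group means, and every panel spans the same range of log2 values; in the 14 called genes no shCSF2 array lies within the shCtrl range.

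Neither receptor gene passed with the probe set used. IFNAR1 read 7.18, 7.09 and 7.07 in shCSF2 cells, against 7.07, 6.97 and 7.02 in shCtrl cells. The lowest shCSF2 and the highest shCtrl array nearly met, and the probe set used did not pass (0.10 ± 0.04, adjusted p = 0.150). The other 3 probe sets of IFNAR1 passed as higher in the fit over probe sets, with 0.19, 0.38 and 0.40, and their mean with the first gave 0.26 (adjusted p = 0.00309). The call for IFNAR1 therefore depended on the probe set, and the probe set used was of the x_at type. IFNGR1 read 8.97, 8.98 and 9.01 in shCSF2 cells, against 9.03, 9.05 and 9.04 in shCtrl cells. All shCSF2 arrays were slightly lower, and the difference did not pass (-0.05 ± 0.03, adjusted p = 0.278).

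How far probe sets of a gene agree could be read for 24 of the 37 genes, and the other 13 had 1 probe set. In a fit over all 44988 probe sets with 1 symbol, 29.7% passed, and 53 of the 93 that belong to these genes did (57.0%), 37 as higher and 16 as lower. For 6 of the 24 genes every probe set passed in 1 direction, namely IFIT2, IFIT5, GBP1, IFITM1, RSAD2 and IFI16. For 12 genes some passed and all that did pointed 1 way, for 5 none passed, and PARP9 alone had probe sets past the threshold in both directions.

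**Figure D4:**
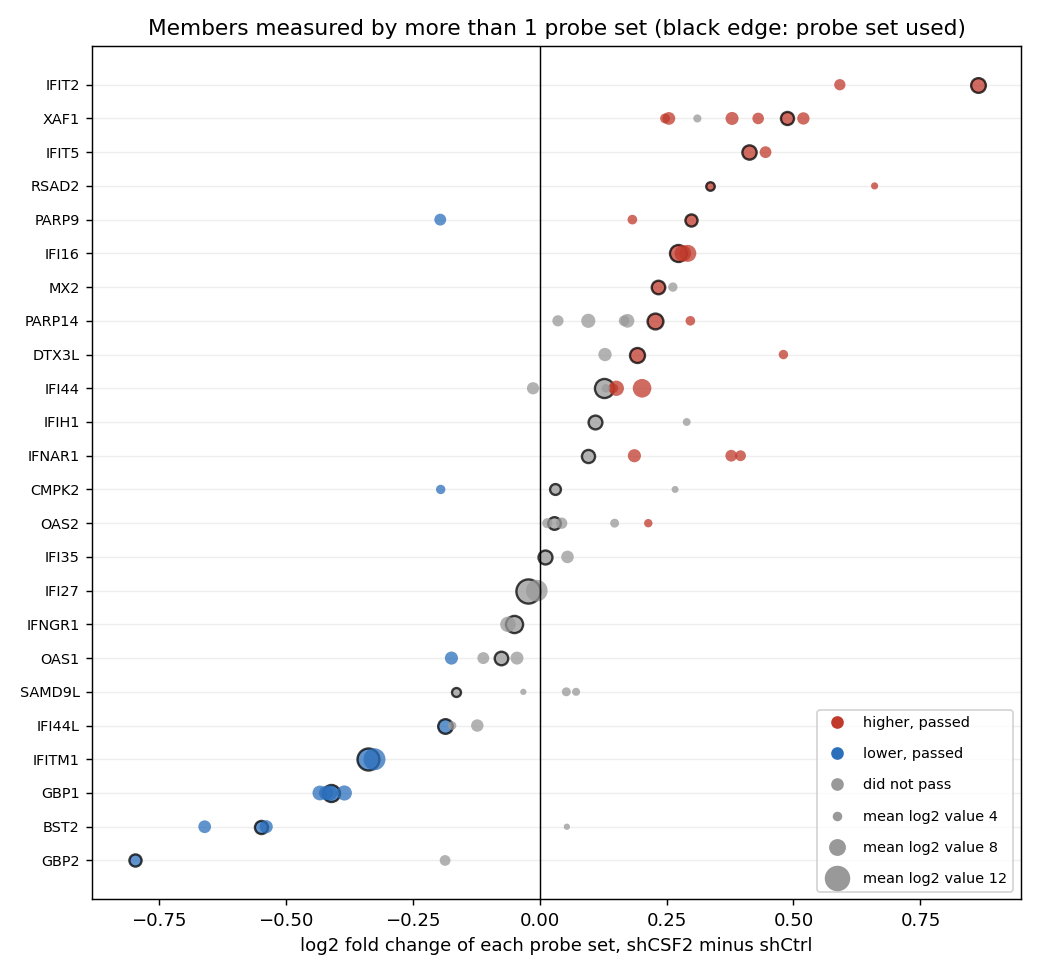
Log2 fold change of every probe set of the 24 genes with more than 1, with the probe set used outlined in black and the size of a point growing with its mean log2 value. Red and blue probe sets passed as higher and lower in the fit over probe sets, and PARP9 is the gene that holds both colours.

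The rest of the pathway was read from 4 further gene lists. The interferon genes themselves were near the low end of the arrays in both groups. The 7 that were measured had mean log2 values between 2.23 and 3.61, and none passed. The 2 brightest, IFNL1 (3.66 ± 0.10 in shCSF2 and 3.56 ± 0.14 in shCtrl cells, SD, n = 3 each) and IFNE (3.53 ± 0.33 in shCSF2 and 3.29 ± 0.35 in shCtrl cells), overlapped between groups. Of 12 receptor chains, kinases and transcription factors, 2 rose and 3 fell (41.7%), a share near the 43.4% of all genes with a mean of at least 5 and above the 32.7% of all genes. The transcription factor gene IRF1 rose by 0.84 ± 0.05, whereas the receptor chains IFNLR1 (-0.28 ± 0.08), IFNGR2 (-0.20 ± 0.03) and IFNAR2 (-0.17 ± 0.05) fell. IRF3, named after its values were seen, also rose (0.14 ± 0.03). JAK1, JAK2, TYK2, IRF7 and IRF9, named after their values were seen, did not pass, with log2 fold changes between -0.09 and 0.03.

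Of 14 further sensors and adaptors, 2 with a mean under 5, 5 rose and 1 fell (42.9%). This was above the 32.7% of all genes and again near the 43.4% of all genes with a mean of at least 5. In the higher direction 35.7% passed, against 16.7% of all genes and 23.2% of those with a mean of at least 5. The kinase TBK1 (0.40 ± 0.04), which activates IRF3, the RIG-I ubiquitin ligase TRIM25 (0.34 ± 0.04), the RNA sensor TLR3 (0.30 ± 0.05) and its adaptor TICAM1 (0.25 ± 0.05) rose most, TLR3 at a mean log2 value of 3.42. Of 41 other interferon-stimulated genes, 10 rose and 17 fell (65.9% in all), against 32.7% of all genes (16.7% higher and 16.0% lower) and 43.4% of those with a mean of at least 5. Their median log2 change was -0.09. The death ligand gene TNFSF10 (-0.87 ± 0.10), GBP4 (-0.57 ± 0.07), the capsid-binding gene TRIM5 (-0.53 ± 0.07) and the lysosomal thiol reductase gene IFI30 (-0.49 ± 0.04) changed most. Its median was thus of opposite sign to that of the 37 genes, a difference that was not tested.

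**Figure D5:**
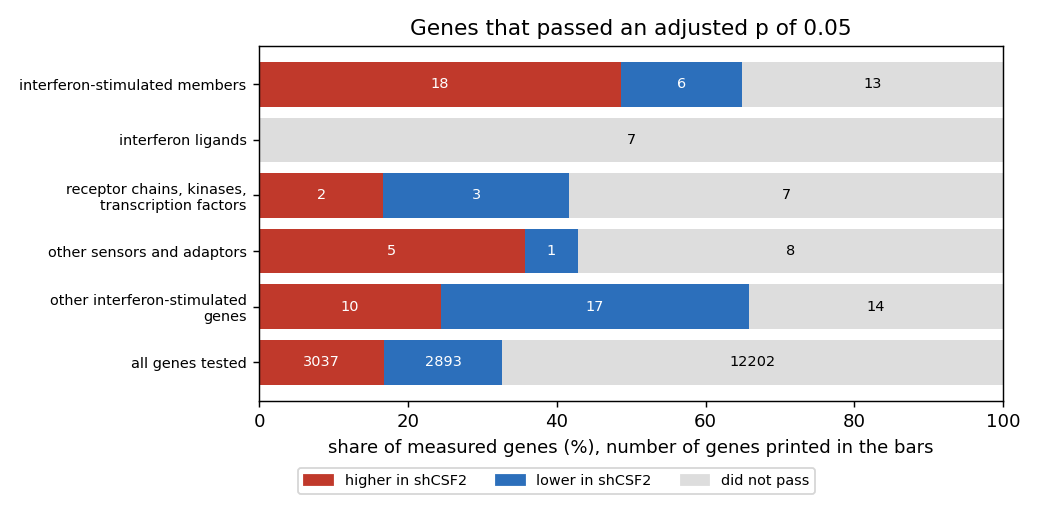
Share of measured genes that passed as higher (red) or lower (blue) in shCSF2 cells or did not pass (grey), for the 37 interferon-stimulated genes, 4 further lists of the pathway and all 18132 genes, with the number of genes in each bar. The 37 genes hold 18 higher and 6 lower, the other interferon-stimulated genes 10 higher and 17 lower.

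Array medians lay between 5.77 and 5.79 in both groups, and values correlated across probe sets with r of 0.998 within groups and 0.994 between them, where probe sets are not independent replicates. The thyroid transcription factor genes PAX8 (mean log2 value 8.09) and NKX2-1 (9.57) and the keratins KRT7, KRT8 and KRT18 (10.29 to 11.89) were bright. The thyroid factor gene FOXE1 (6.09) and the epithelial gene EPCAM (5.68) were less bright. The keratin KRT19 (4.08) was dim, as were TG, TSHR and SLC5A5 (3.87 to 4.62). NKX2-1 (-0.42) and KRT8 (-0.26) fell in shCSF2 cells, and the part of this in the interferon results was not tested. Of 11 measured markers of leukocytes, fibroblasts and endothelium none passed. Their means lay between 2.34 and 6.95. The dimmest, the leukocyte gene PTPRC, averaged 2.33 ± 0.07 in shCSF2 and 2.35 ± 0.01 in shCtrl cells (SD, n = 3 each). The leukocyte gene CD68 (6.95) and the endothelial genes CDH5 (6.55) and PECAM1 (6.24) were brighter than FOXE1 and EPCAM. The other markers of these 3 cell types were dimmer than both. The difference between the 3′ and 5′ control probe sets, a sign of RNA quality, ran from 0.57 to 0.66 for beta actin in shCSF2 and from 0.54 to 0.63 in shCtrl cells. In a bulk sample, fewer cells that express a gene and less RNA per cell cannot be told apart.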

How the data were processed

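Total RNA (200 ng per sample) was hybridised to Affymetrix PrimeView arrays, per the labels' protocols. The authors deposited a single table of log2 summaries with a value for every probe set on every array. RMA, oligo and limma are listed, per the submitters' processing notes, with no versions or roles. Summaries of the RMA kind understate changes of dim genes. No probe-level data were used, so background correction could not be varied, and precision is limited by there being 3 arrays a group.

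Of 49395 probe sets, 102 were controls, 44988 were paired with 1 gene symbol by the platform annotation, 1832 with several and 2473 not listed. Symbols were checked through gene identifiers against RefSeq, assembly GRCh38.p14. There were 27 probe sets without a match, and 0 symbols changed. The brightest probe set stood for each of 18132 genes. Groups were compared with limma 3.58.1 (lmFit, then eBayes; R 4.3.3). No block or filter was used, and p-values were Benjamini-Hochberg adjusted over all genes; fold changes are shCSF2 minus shCtrl with moderated SE. The fit was run on simulated data in which far fewer genes were changed than were called here, as a check of the code and not of these calls. Promoters were searched for exact motif matches, and figures were drawn with matplotlib 3.10.9.

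Values on every array are given for the 14 called genes with the largest absolute change and for the receptor genes; from each further list the 4 called genes with the largest change were named, or the 2 brightest where none passed. The genes, lists and tests were chosen with earlier results of these data known. Alternatives were 2 filters on dim genes, 3 normalisations, robust estimation with a variance trend, weighted arrays, averaging a gene's probe sets, its most variable probe set, a block for the replicate number, and fits without 1 array.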

Additional observations from a re-analysis of the deposited data

How the results depend on the processing

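Over the 16 alternatives none of the 37 genes that was called changed direction, and the counts of called genes stayed within 1.5 times. The share of all genes called did not: it was 32.7% over all genes, 51.4% with the filter at a mean of 5 and 64.0% with the filter at the median, where fewer and brighter genes were tested, against 64.9%, 65.7% and 71.9% of the interferon-stimulated genes. Beside the 18 higher genes, 15 to 17 were higher in the 6 fits that left out 1 array and 17 to 19 under the other settings. The 6 lower genes stayed at 6, or 7 with all probe sets averaged. IFI44, OASL and RSAD2 lost their calls without single arrays; IFI44 also lost it with median centring, array weights, the most variable probe set and the replicate block, and MX2 and IFI44L lost theirs with the most variable probe set. IFNAR1 and OAS1 passed with all probe sets averaged (0.26 and -0.10) and, with OAS2, by the most variable probe set, and IFIH1 passed with a filter at the median level of all genes. The cause was not tested. No scaling moved the median of all genes by over 0.1. Same-numbered arrays of the 2 groups correlated in their deviations with r of 0.03, 0.05 and 0.03, so the numbers were not taken to pair them; with the replicate number as a block, 17 of the genes were higher and 6 lower, and 5469 of all genes passed instead of 5930.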
